A study of Mus musculus with 96 samples.

Results

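Caloric restriction was compared with free feeding in the brown adipose tissue (BAT) of male C57/Bl6 mice, on 12 of the 96 bead arrays of the series. The arrays were chosen by their labels: 6 BAT arrays of calorically restricted animals (CR) against 6 BAT arrays of wild type animals (WT). CR animals were WT mice held for 3 months on a restriction labelled EODF, whose letters are not spelled out in the labels. WT animals had free access to food. Mice of both groups ate a low fat diet and were killed at 8 in the morning after 12 h without food, so every value below compares fasted animals. No label gives their age. The other 12 BAT arrays of the series, 6 of animals labelled SIRT1Tg and 6 of animals kept with a running wheel for 10 weeks, entered the model for the spread between arrays and, through the SIRT1Tg animals, for the difference between 2 series of animal numbers, and arrays of liver and epididymal white fat (eWAT) were used for the comparison between tissues. Of the 12 CR and WT animals with a BAT array, all 12 had a liver array and 11 an eWAT array. All CR animals carried numbers above 2000, whereas 3 WT animals had numbers below 2000 and 3 had numbers above. An array is named here by tissue, animal number and group, as in BAT_2230_CR. The SIRT1Tg animals were split in the same way, and no label says what the 2 series stand for. A term for the series was therefore kept in the fit, and a fitted difference is not the plain difference of the group means. Its size also depends on the background correction: without one, the log2 differences of the 24 named genes past the threshold were a median of 0.642 times those printed, and ranged from 0.267 to 0.987 times.

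Brown fat burns fatty acids and glucose in its mitochondria to produce heat. Its adipocytes hold many small lipid droplets and express Ucp1, the protein that lets protons leak across the inner mitochondrial membrane. Fasting mobilises the droplets, and food restriction followed by refeeding is known to raise fatty acid synthesis in rodent fat. Fuel choice in the mitochondrion depends in part on the pyruvate dehydrogenase kinases, which hold back the oxidation of glucose.

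Of 10025 genes tested, 27 passed a Benjamini-Hochberg adjusted p of 0.05 in limma, which is 0.269% of the genes; 9 rose under CR (0.0898%) and 18 fell (0.18%). Under median scaling in place of quantile normalisation, 5 rose and 22 fell. At an unadjusted p under 0.05 there were 1002 genes. The genes that fell included Hilpda, a lipid droplet protein that restrains lipolysis, Pdk4, a pyruvate dehydrogenase kinase, Gabarapl1, a protein of the autophagosome membrane, and Btc, a ligand of the epidermal growth factor receptor. Among the genes that rose were Tfrc, the transferrin receptor through which cells take up iron, and Entpd4, a nucleoside diphosphatase of the Golgi and lysosome. Ucp1 did not pass. BAT_2230_CR and BAT_2241_CR carried muscle transcripts, and are called the 2 muscle-bearing arrays below. Without them 10 genes passed (0.0998%), 5 in each direction, and 9 of these were among the 27. Omission of 1 array at a time from all 12 gave 44 genes without BAT_1959_WT, 9 to 11 without BAT_2231_WT, BAT_2226_WT, BAT_2232_WT or BAT_2239_CR, 14 without BAT_2242_CR, 15 without BAT_2241_CR and 19 to 31 for the other 5.

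Mean signal on the 12 arrays ran from 225 to 282, and 11773 to 12847 probes were detected per array. With 6 arrays a group, each of a separately numbered animal, it is the count of arrays that sets the precision. Defining markers of brown adipocytes were present on every array: Cidea had a mean level of 13.71 ± 0.06 in CR and 13.64 ± 0.07 in WT, and Cox8b 13.54 ± 0.07 in CR and 13.65 ± 0.05 in WT (log2 intensity, SD, n = 6 each). Levels are log2 normalised intensities of single probes, so they are compared between arrays and not between genes. The arrays of the 12 animals lay on 9 slides, of which 1 held both groups (BAT_2230_CR with BAT_1960_WT), so slide and group can hardly be told apart. In whole tissue, fewer cells of a type and less RNA per cell cannot be told apart.

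Skeletal muscle transcripts reached the BAT arrays of both groups in uneven amounts. Over 18 fast fibre markers the mean level was 10.70 on BAT_2230_CR and 11.59 on BAT_2241_CR, and between 4.77 and 7.80 on the other 4 CR arrays, against 4.74 to 8.69 on the 6 WT arrays. Over 7 slow fibre markers BAT_2230_CR had 10.20 and BAT_2241_CR had 11.33, the other 4 CR arrays had 5.88 to 6.12, and the WT arrays had 5.60 to 8.75. Acta1, the actin of skeletal muscle, ran from 4.12 through a median of 9.25 to 13.80 in CR and from 4.28 through 9.65 to 11.65 in WT, and did not pass (-0.61 ± 2.11 on the log2 scale, SE, adjusted p = 0.957 in limma). Ckm, the muscle creatine kinase, ran from 4.16 to 11.56 in CR and from 4.12 to 8.54 in WT (0.17 ± 1.49, adjusted p = 0.985). Without the 2 arrays the differences were -2.90 ± 2.08 for Acta1 and -1.82 ± 1.33 for Ckm, so that of Ckm changed sign, and neither passed (adjusted p = 0.664 and 0.671 in limma). Both CR arrays thus lay above every WT array in both marker lists, while some WT arrays also lay well above the lowest. Of the 25 muscle markers tested, 0 passed in limma, where 0.269% of all genes passed.

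**Figure D1:**
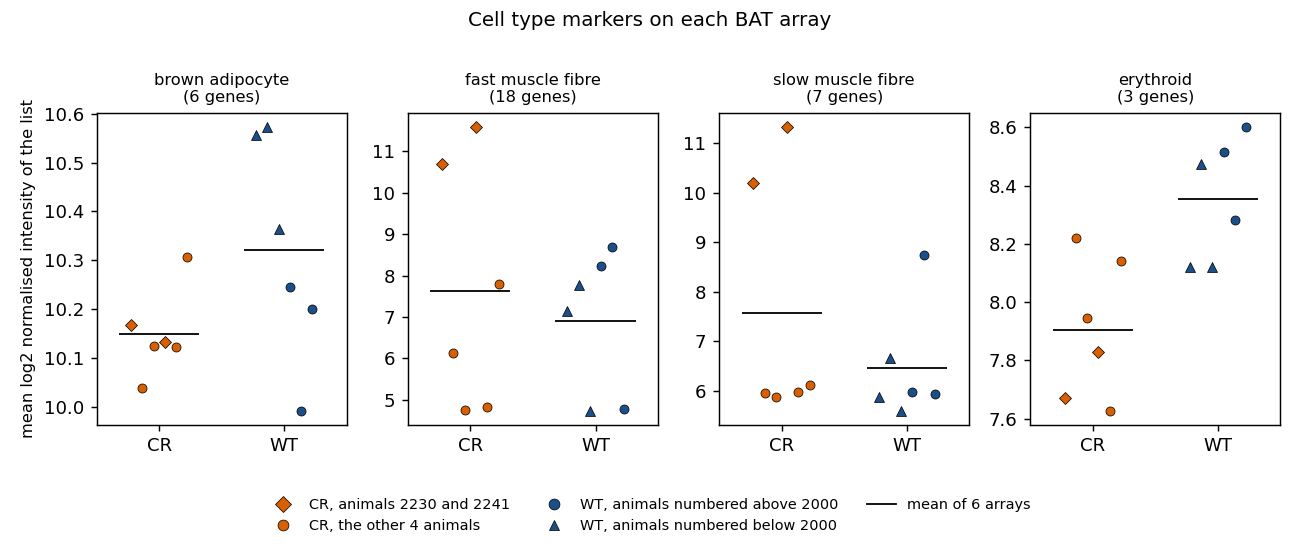
Mean log2 normalised intensity of 4 marker lists on each BAT array, CR left and WT right, with a line at the mean of 6 arrays. BAT_2230_CR and BAT_2241_CR (diamonds) reach 10.70 and 11.59 in fast fibre markers and 10.20 and 11.33 in slow fibre markers, above every other array, while their brown adipocyte marker levels lie among those of the other arrays.

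Promoters are printed for the 4 genes past the threshold that belong to one of the 25 functional gene lists, since these are the genes on which the comparison of pathways turns. Each runs from 250 bases before to 50 after an annotated start (RefSeq, GRCm38.p6), on the strand of the gene and read 5′ to 3′. These 4 motifs were searched on both strands: GTAAACA, bound by FoxO factors, ACGTG, the core bound by hypoxia-inducible factors, TGACGTCA, the cyclic AMP response element, and the PPAR direct repeat with a spacer of any single base. Matches are in capitals. The table holds 2 starts for Hilpda and for Tfrc. Shown are the downstream start of Hilpda and the upstream start of Tfrc, whose windows hold a match.
Gabarapl1, chr6:129532942-129533241, plus strand: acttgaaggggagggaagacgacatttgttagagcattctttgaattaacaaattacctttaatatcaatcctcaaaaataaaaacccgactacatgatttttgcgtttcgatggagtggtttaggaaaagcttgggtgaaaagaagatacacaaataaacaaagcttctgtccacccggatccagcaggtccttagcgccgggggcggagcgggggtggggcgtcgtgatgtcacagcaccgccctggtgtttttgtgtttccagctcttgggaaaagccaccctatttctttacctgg
Hilpda, chr6:29272376-29272675, plus strand: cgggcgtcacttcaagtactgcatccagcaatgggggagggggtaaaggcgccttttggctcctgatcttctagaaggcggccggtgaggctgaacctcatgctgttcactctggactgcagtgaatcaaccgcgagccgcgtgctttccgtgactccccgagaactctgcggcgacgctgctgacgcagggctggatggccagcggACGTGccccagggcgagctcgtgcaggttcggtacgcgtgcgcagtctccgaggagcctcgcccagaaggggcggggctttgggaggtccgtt
Pdk4, chr6:5496229-5496528, minus strand: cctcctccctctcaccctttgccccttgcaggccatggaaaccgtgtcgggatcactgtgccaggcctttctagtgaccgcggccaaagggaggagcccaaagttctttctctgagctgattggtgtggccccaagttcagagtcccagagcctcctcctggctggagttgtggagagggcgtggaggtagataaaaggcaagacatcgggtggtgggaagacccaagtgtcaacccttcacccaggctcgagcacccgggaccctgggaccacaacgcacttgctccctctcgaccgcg
Tfrc, chr16:32608646-32608945, plus strand: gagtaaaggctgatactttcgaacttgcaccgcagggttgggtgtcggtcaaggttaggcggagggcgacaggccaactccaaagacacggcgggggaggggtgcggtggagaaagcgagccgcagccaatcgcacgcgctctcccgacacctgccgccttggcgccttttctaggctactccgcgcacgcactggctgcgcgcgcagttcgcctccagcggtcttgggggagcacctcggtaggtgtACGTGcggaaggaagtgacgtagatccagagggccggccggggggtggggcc
In the Hilpda window the letters ACGTG begin 43 bases before the start, and in the Tfrc window they begin 2 bases before it. The other window of Tfrc holds the same match, and the other window of Hilpda holds none of the 4. Neither Gabarapl1 nor Pdk4 has any of the 4 in the window shown. Promoters were found for 18 of the 24 named genes past the threshold, with 26 starts in all, some with overlapping windows. ACGTG was present in 9 of these 26 windows, against 19.6% of all 32851 windows in the table. GTAAACA was present in 2 of 26, against 3.65% of all windows, TGACGTCA in 0 against 1.79%, and the PPAR repeat in 0 against 0.0396%. A match describes the letters only and is no sign of binding.

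Hilpda (hypoxia-inducible lipid droplet associated), which inhibits the triglyceride lipase of the droplet, had the largest fall by log2 difference among the genes that passed. Its level ran from 7.42 through a median of 7.65 to 8.40 in CR, against 7.25 through 9.41 to 9.72 in WT. The groups overlapped through a single WT array, BAT_1959_WT, at 7.25; the other 5 WT arrays lay between 9.07 and 9.72, above all CR arrays. The fitted difference was -1.79 ± 0.35 (0.289-fold, adjusted p = 0.0232 in limma), and a second probe for the gene gave -1.53. Without the 2 muscle-bearing arrays it was -1.80 ± 0.40 with an adjusted p of 0.0817, so the size stayed and the call was lost. Without the series term it was -1.37 with an adjusted p of 0.0837. The call was also lost on leaving out BAT_2226_WT, BAT_2231_WT, BAT_2232_WT, BAT_2239_CR or BAT_2242_CR, with differences from -1.79 to -1.72 and adjusted p from 0.0587 to 0.101.

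Pdk4, which phosphorylates and inhibits pyruvate dehydrogenase in fasting, ran from 12.16 through 12.36 to 12.46 in CR, against 12.51 through 12.86 to 13.09 in WT. Every CR array lay below every WT array. It fell by 0.56 on the log2 scale (SE 0.12, 0.679-fold, adjusted p = 0.0343 in limma), and the adjusted p was 0.0983 without the 2 muscle-bearing arrays, with a difference of -0.55. Across the 12 omissions of a single array the difference ran from -0.59 to -0.49 and the call was kept in 5, being lost without BAT_1960_WT, BAT_2226_WT, BAT_2231_WT, BAT_2232_WT, BAT_2230_CR, BAT_2239_CR or BAT_2242_CR.

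Gabarapl1, an Atg8 family protein whose gene is a target of FoxO factors, ran from 9.70 through 9.85 to 10.11 in CR and from 10.43 through 10.62 to 10.93 in WT. The groups did not overlap. It fell by 0.86 on the log2 scale (SE 0.12, 0.551-fold, adjusted p = 0.0015 in limma). Without the 2 muscle-bearing arrays the difference was -0.77 ± 0.13 with an adjusted p of 0.0247, and it passed in each of the 12 omissions of a single array.

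Tfrc brings iron-loaded transferrin into the cell. Its level ran from 6.88 through 7.63 to 7.85 in CR, against 5.76 through 6.39 to 6.81 in WT, with no overlap between groups. Tfrc rose by 1.28 ± 0.23 (2.42-fold, adjusted p = 0.0136 in limma), a second probe gave 1.35, and the difference without the 2 muscle-bearing arrays was 1.27 ± 0.25 (adjusted p = 0.0466). The adjusted p was 0.0692 without BAT_2226_WT and 0.0848 without BAT_2231_WT. Erythroid cells, which carry this receptor while they mature, were followed by 3 measured markers. Alas2, the erythroid enzyme that starts haem synthesis, averaged 6.60 ± 0.28 in CR and 7.19 ± 0.35 in WT, and Hba-a1, an alpha globin, 12.42 ± 0.27 in CR and 12.71 ± 0.46 in WT. With Slc4a1 included, the mean level of the 3 was 7.63 to 8.22 in CR, against 8.12 to 8.60 in WT, and each was lower in CR at an unadjusted p under 0.05 while 0 of 3 passed after adjustment in limma. Their part in the Tfrc result was not tested.

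**Figure D2:**
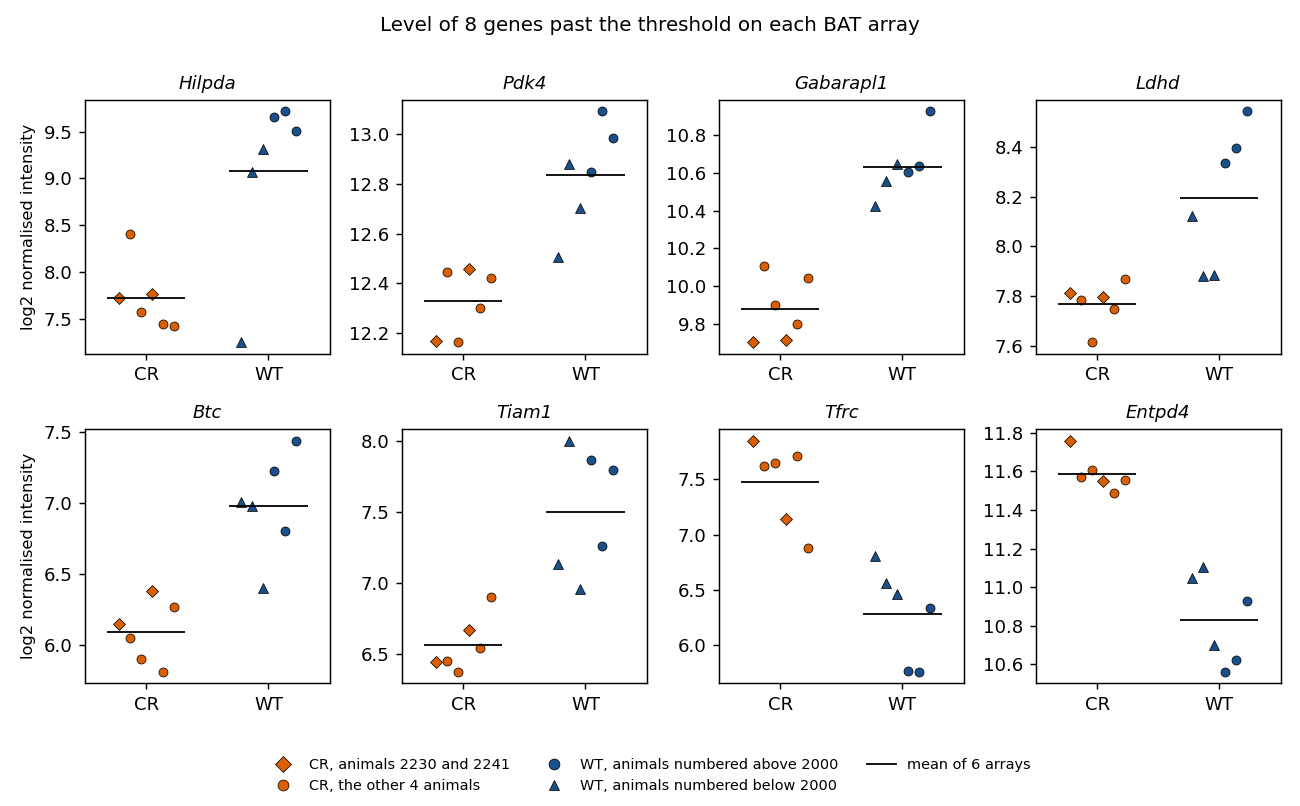
Log2 normalised intensity of 8 genes past the threshold on each BAT array, CR left and WT right in each panel, with a line at the mean of 6 arrays. The 8 genes are a selection from the 27 past the threshold. In 7 of the 8 panels the 6 CR arrays do not overlap the 6 WT arrays. In the Hilpda panel BAT_1959_WT, at 7.25, lies below every CR array. Among all 27, 6 genes had every CR array above every WT array and 8 had every CR array below. Over all 10025 genes these shares were 0.229% and 0.668%.

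Btc, the growth factor named above, ran from 5.81 through 6.10 to 6.38 in CR and from 6.40 through 6.99 to 7.44 in WT, so the groups came close without overlapping. It fell by 1.09 on the log2 scale (SE 0.16, 0.469-fold, adjusted p = 0.00164 in limma). Tiam1, an exchange factor that activates Rac, ran from 6.37 through 6.49 to 6.90 in CR and from 6.95 through 7.53 to 8.00 in WT, and fell by 1.06 (SE 0.17, 0.48-fold, adjusted p = 0.00516). Both passed in all 12 omissions of a single array and also without the 2 muscle-bearing arrays together, at adjusted p of 0.0102 for Btc and 0.0281 for Tiam1. Tiam1 was the 1 gene of the 27 that still passed when slide was a fixed term. Mknk2, a kinase of the translation factor eIF4E, ran from 10.44 through 10.61 to 10.83 in CR and from 10.60 through 11.01 to 11.40 in WT, and fell by 0.57 (SE 0.10, adjusted p = 0.0146). Its groups overlapped: WT animals numbered below 2000 reached down to 10.60, while those above 2000 had a mean of 11.31. Without the 2 muscle-bearing arrays its adjusted p was 0.0817, and without the series term it was -0.35 with an adjusted p of 0.239.

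Several genes of metabolism and of intracellular transport also passed. Ldhd, the mitochondrial D-lactate dehydrogenase, ran from 7.62 through 7.79 to 7.87 in CR and from 7.88 through 8.23 to 8.54 in WT, and fell by 0.66 (SE 0.09, 0.634-fold, adjusted p = 0.00141 in limma). Its 2 further probes gave -0.57 and -0.60. Without the series term the Ldhd difference was -0.42 with an adjusted p of 0.138 in limma. The groups did not overlap, and the WT animals numbered above 2000 had a mean of 8.42. Entpd4 ran from 11.49 through 11.56 to 11.76 in CR and from 10.56 through 10.81 to 11.10 in WT, a clear gap, and rose by 0.81 ± 0.11 (1.75-fold, adjusted p = 0.00141). Aldoc, the aldolase C of glycolysis, ran from 4.69 through 5.37 to 5.68 in CR and from 4.19 through 4.37 to 4.63 in WT, and rose by 0.92 ± 0.15 (adjusted p = 0.00725). Aldoc was detected on 6 CR and 3 WT arrays, so its WT level lies near background. Snx24, a sorting nexin, ran from 6.05 through 6.49 to 6.63 in CR and from 6.86 through 7.10 to 7.48 in WT, with no overlap, and fell by 0.83 (SE 0.15, 0.561-fold, adjusted p = 0.0136). Osbpl6, a relative of oxysterol-binding protein, ran from 5.32 through 5.59 to 5.74 in CR and from 5.08 through 5.94 to 6.75 in WT. Its WT values spread over both sides of the CR values, and the WT animals numbered above 2000 had a mean of 6.52. It fell by 0.80 in the fit (SE 0.17, adjusted p = 0.0343 in limma). Without the series term the Osbpl6 difference was -0.44 with an adjusted p of 0.369. Stard10, a phospholipid transfer protein, ran from 7.27 through 7.60 to 7.63 in CR and from 6.78 through 7.02 to 7.15 in WT, and rose by 0.46 (SE 0.09, adjusted p = 0.0187). Another probe for Stard10 gave 0.08 at an unadjusted p of 0.64, so its probes disagree, and under median scaling its adjusted p was 0.256. Ldhd, Entpd4, Aldoc, Snx24 and Stard10 also passed without the 2 muscle-bearing arrays, and Osbpl6 did not (adjusted p = 0.0817).

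Twist1, a basic helix-loop-helix factor, was 5.60 ± 0.17 in CR and 6.03 ± 0.13 in WT, with no overlap, and fell by 0.59 (adjusted p = 0.0149 in limma). Lsm14a, a component of cytoplasmic processing bodies, ran from 8.07 through 8.14 to 8.46 in CR and from 8.44 through 8.58 to 8.78 in WT, and fell by 0.51 (SE 0.10, adjusted p = 0.029). The overlap of Lsm14a came from BAT_2236_CR, at 8.46. Mta3, a subunit of a nucleosome remodelling and deacetylase complex, ran from 6.95 through 7.29 to 7.36 in CR and from 7.20 through 7.59 to 8.03 in WT, and fell by 0.53 (SE 0.11, adjusted p = 0.0371). A second Mta3 probe gave -0.36. Zfp30, a zinc finger protein, ran from 4.42 through 4.87 to 5.26 in CR and from 4.92 through 5.35 to 5.52 in WT, and fell by 0.59 (SE 0.13, adjusted p = 0.0489). Zfp30 was detected on 5 CR and 6 WT arrays, so its CR level lies near background. Across the alternative settings its difference ran from -0.94 to -0.17. Mta3 and Zfp30 overlapped between groups, and each kept its call in 3 of 12 omissions of a single array.

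Snhg11, a long non-coding RNA gene that hosts small nucleolar RNAs, ran from 6.17 through 7.44 to 7.89 in CR and from 4.57 through 5.55 to 6.13 in WT, and rose by 1.57 ± 0.30 (2.97-fold, adjusted p = 0.0186). Its rise was the largest by log2 difference among the genes that passed, and its groups did not overlap. C1qtnf4, a secreted relative of C1q, ran from 5.32 through 5.67 to 5.74 in CR and from 4.45 through 4.96 to 5.35 in WT, and rose by 0.86 ± 0.16 (adjusted p = 0.0167). Hemk1, a methyltransferase of mitochondrial translation release factors, ran from 8.84 through 8.96 to 9.08 in CR and from 8.51 through 8.61 to 8.76 in WT, a small gap with no overlap, and rose by 0.38 ± 0.08 (adjusted p = 0.0336). Gpsm1, a modulator of G protein signalling, ran from 4.63 through 4.71 to 4.95 in CR and from 4.30 through 4.42 to 4.86 in WT, and rose by 0.43 ± 0.09 (adjusted p = 0.036). Gpsm1 was detected on 6 CR arrays and 1 WT array, so its WT level lies near background. The transcript 6430571L13Rik ran from 5.79 through 6.70 to 7.85 in CR and from 5.03 through 5.54 to 5.79 in WT, and rose by 1.19 ± 0.26 (adjusted p = 0.0498). It kept its call in 2 of 12 omissions, the fewest of the 24 named genes. None of Twist1, Lsm14a, Mta3, Zfp30, Snhg11, C1qtnf4, Hemk1, Gpsm1 and 6430571L13Rik passed without the 2 muscle-bearing arrays, where adjusted p in limma ran from 0.0638 for Hemk1 to 0.162 for Zfp30.

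Probe ILMN_1225528 ran from 7.01 through 7.19 to 7.86 in CR and from 7.74 through 8.02 to 8.32 in WT and fell by 0.91 (SE 0.18, adjusted p = 0.029). Probe ILMN_2758198 ran from 6.82 through 7.31 to 7.41 in CR and from 7.53 through 7.76 to 8.10 in WT and fell by 0.64 (SE 0.13, adjusted p = 0.029). Neither passed without the 2 muscle-bearing arrays (adjusted p = 0.12 and 0.0817 in limma), and the annotation used here gives neither a gene symbol. Of the 27 genes, 3 lay outside the rule for named genes and are given because the count is small: Akr1b10, an aldo-keto reductase (-0.49), Blmh, a cysteine protease (-0.38), and Pitpnb, a phosphatidylinositol transfer protein (-0.48). None of these 3 passed without the 2 muscle-bearing arrays, with adjusted p from 0.0973 to 0.12.

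Across all 10025 genes, 23 had every CR array above every WT array (0.229%) and 67 had every CR array below (0.668%). Among the 27 that passed the test these were 6 and 8. All 27 kept their sign at an unadjusted p under 0.05 both without the 2 muscle-bearing arrays and against the 3 WT animals numbered above 2000, while 7 passed adjustment in that second comparison: Entpd4, Gabarapl1, Hilpda, Ldhd, Osbpl6, Tfrc and Tiam1. On the slide that held both groups, 25 of the 27 had BAT_2230_CR and BAT_1960_WT in the same order as the fit, the exceptions being Osbpl6 (0.14) and Pitpnb (0.08). The difference there was -0.07 for Ldhd, against -1.34 for Hilpda, -0.71 for Pdk4, -0.86 for Gabarapl1 and 1.29 for Tfrc. With slide as a fixed term 1 of 10025 genes passed. Without the series term 13 of the 27 kept their call. These comparisons reuse arrays of the fit that chose the 27 genes, so the counts are not independent of that choice. Over all 10025 genes, 1037 were at an unadjusted p under 0.05 in limma without the 2 muscle-bearing arrays. Against the WT animals numbered above 2000 only, 1037 were. The share of all genes in the same order on the shared slide was not computed.

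Klb, the co-receptor through which adipocytes respond to FGF21, was the only gene that passed without the 2 muscle-bearing arrays and not with them, and was singled out after its values were seen. Its level was 8.19 in BAT_2230_CR and 8.26 in BAT_2241_CR, and 8.62 to 8.98 in the other 4 CR animals, against 7.92 to 8.82 in WT. The difference was 0.61 (adjusted p = 0.0359 in limma) without those arrays and 0.43 (adjusted p = 0.223) with them. The part of muscle RNA in its lower level on those 2 arrays was not tested.

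**Figure D3:**
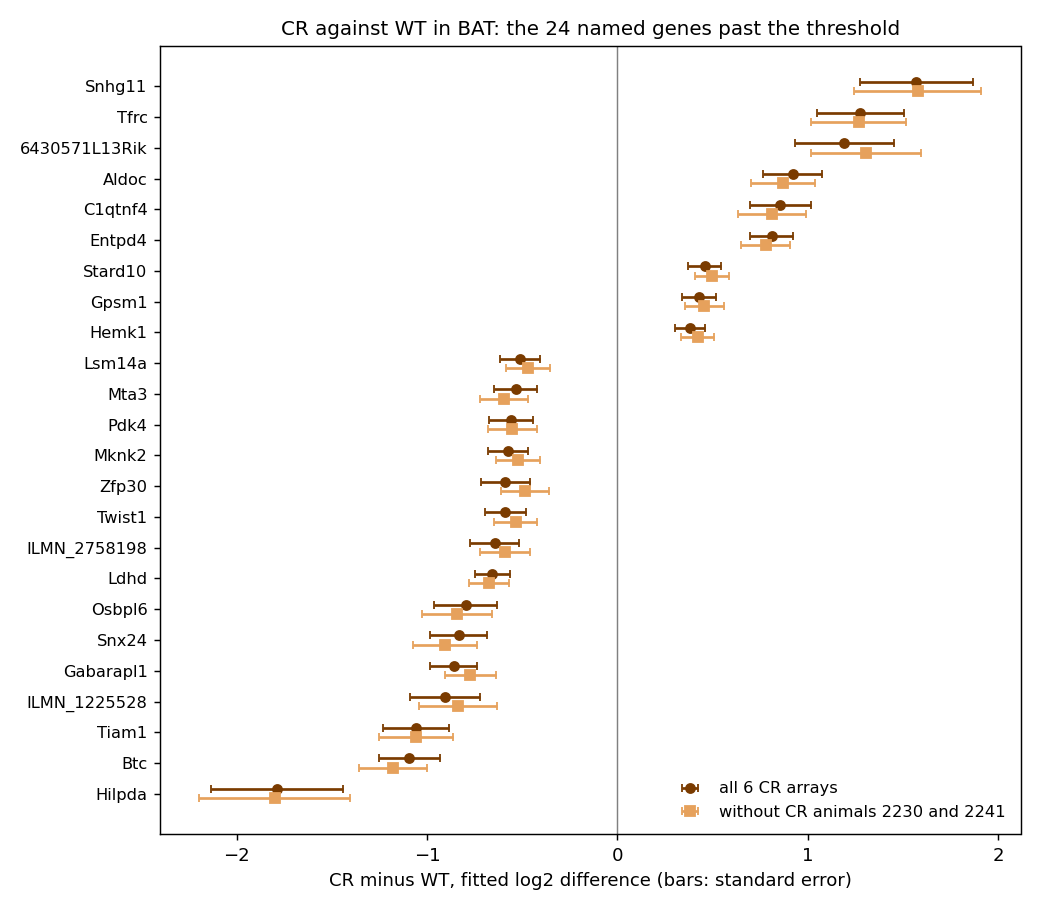
Fitted log2 difference (CR minus WT) with its standard error for the 24 named genes past the threshold, with all 6 CR arrays (dark circles) and without the 2 muscle-bearing arrays (light squares). Pairs of points run from Hilpda at -1.79 and -1.80 to Snhg11 at 1.57 and 1.58. Each pair lies on the same side of 0, which the rule for named genes required.

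Of 23 thermogenic brown adipocyte genes listed, 16 were tested and 0 passed in limma in either direction. Only 0.269% of all genes tested passed, so a count of 0 does not set this list apart. At an unadjusted p under 0.05, 2 of the 16 were lower, against 6.05% of all genes. The median difference was -0.09, against -0.00293 over all genes tested. Ucp1 ran from 12.98 through 13.13 to 13.48 in CR and from 12.73 through 13.40 to 13.72 in WT, with groups that overlapped throughout. Its difference was 0.06 ± 0.14 (adjusted p = 0.939). Ppargc1a, a coactivator of mitochondrial biogenesis, averaged 7.77 ± 0.17 in CR and 8.31 ± 0.47 in WT; the 3 WT animals numbered above 2000 had a mean of 7.90, and the fitted difference was -0.01 ± 0.41. Elovl3, a fatty acid elongase of cold-exposed brown fat, differed by 0.21 ± 0.45. Ppara, the nuclear receptor that drives fatty acid oxidation genes, had the lowest difference of the list at -0.73 ± 0.23 (adjusted p = 0.229). Dio2, Adrb3, Prdm16 and Otop1 were not tested here.

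Over all genes tested 49.2% of differences were positive and 50.8% negative, and at an unadjusted p under 0.05 were 3.94% higher and 6.05% lower in CR. After adjustment 0.269% passed in either direction. Of 17 fatty acid synthesis genes tested, 15 had a positive difference, 4 at an unadjusted p under 0.05, and 0 passed in limma; the median was 0.27 with all arrays, 0.26 without the 2 muscle-bearing arrays, 0.15 against the WT animals numbered above 2000 alone and 0.11 under median scaling. Elovl5, a polyunsaturated fatty acid elongase, was 10.97 ± 0.22 in CR and 10.48 ± 0.20 in WT (0.40 ± 0.11, adjusted p = 0.165), and Elovl6, which elongates saturated chains, was 12.01 ± 0.41 in CR and 11.14 ± 0.66 in WT (0.55 ± 0.22, adjusted p = 0.381). Acaca, which makes malonyl-CoA, differed between the number series among WT animals. It ran from 12.89 through 13.39 to 13.52 in CR and from 11.97 through 12.71 to 13.42 in WT; the WT animals numbered above 2000 had a mean of 13.25, close to the CR mean of 13.33, and the fitted difference was 0.27 ± 0.22 (adjusted p = 0.731). Fasn, the fatty acid synthase, averaged 8.37 ± 0.48 in CR and 7.81 ± 1.14 in WT, with a fitted difference of -0.17 ± 0.37. Scd1, a desaturase, was 13.65 ± 0.11 in CR and 13.60 ± 0.08 in WT. Without the series term the median of the list was 0.59. Among 18 cholesterol synthesis genes 15 were positive with a median of 0.18, 2 were at an unadjusted p under 0.05 and 0 passed; Msmo1 (0.53) and Sqle (0.49), both enzymes of sterol synthesis, led it.

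Of 22 fatty acid oxidation genes tested, 18 had a negative difference (median -0.14, or -0.08 against the WT animals numbered above 2000 alone), 2 were lower at an unadjusted p under 0.05 and 0 passed in limma. Cpt2, the inner membrane carnitine palmitoyltransferase, was 11.42 ± 0.11 in CR and 11.75 ± 0.19 in WT with no overlap between groups (-0.29 ± 0.12, adjusted p = 0.397). Among 21 genes of lipolysis, the lipid droplet and lipid uptake, 16 were negative (median -0.16) and Hilpda was the only member that passed. Angptl4, an inhibitor of lipoprotein lipase that rises in fasting, ran from 11.97 through 12.02 to 12.36 in CR and from 12.25 through 12.57 to 12.72 in WT, which overlapped through BAT_2236_CR and BAT_2226_WT. Its difference was -0.42 ± 0.11 (adjusted p = 0.126), and without the series term it was -0.47 with an adjusted p of 0.0341. Under median scaling, which placed the median of all genes at -0.06, the medians of the oxidation and lipolysis lists were -0.24 and -0.25. Without the 2 muscle-bearing arrays they were -0.10 and -0.11, and 0 members of either passed.

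Among 10 pyruvate dehydrogenase genes tested, Pdk4 alone passed in limma, 8 were positive and the median was 0.06. In the glucose uptake, glycolysis and glycogen list 15 of 22 were positive (median 0.12, or 0.06 without the 2 muscle-bearing arrays) and 0 passed; Slc2a4, the insulin-responsive glucose transporter, was 8.07 ± 0.29 in CR and 7.50 ± 0.19 in WT, above in every CR array (0.47 ± 0.20, adjusted p = 0.433). Ppp1r3c, a glycogen-targeting phosphatase subunit, was 10.66 ± 0.37 in CR and 9.77 ± 0.50 in WT (0.86 ± 0.28, adjusted p = 0.284). At an unadjusted p under 0.05 in limma, 4 of the 22 were higher and 1 was lower, against 3.94% and 6.05% of all genes. Citric acid cycle genes were negative in 11 of 15 (median -0.06), with 5 at an unadjusted p under 0.05 and 0 past adjustment. Complex I genes were positive in 19 of 33 and genes of complexes III to V in 24 of 33, with medians of 0.06 and 0.02 and 0 past the threshold in each. Under median scaling these 2 medians were -0.08 and -0.09, and that of the pyruvate dehydrogenase list was -0.03. The median of all genes was then -0.06.

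Of 21 glucocorticoid and FoxO responsive genes, Gabarapl1 passed and 10 were positive. Txnip, which restrains glucose uptake, was 11.60 ± 0.23 in CR and 12.06 ± 0.23 in WT (-0.38 ± 0.13, adjusted p = 0.284). In the iron and haem list Tfrc was the only one of 13 that passed, and the other 12 differed by -0.17 to 0.09; Slc40a1, the iron exporter, had the lowest value. The remaining lists held 0 genes past the threshold: circadian clock (16 tested), insulin and IGF axis (16), beta-adrenergic and thyroid signalling (11), adipokine and fat expansion (15), heat shock (15), endoplasmic reticulum and integrated stress (19), immediate early (13), NRF2 antioxidant (16), interferon response (21), collagen and matrix (23), cell cycle (18), sirtuin and NAD (15) and triglyceride assembly (14). With 0.269% of all genes past it, a count of 0 does not set lists of this size apart. The medians of these lists lay between -0.06 and 0.11. Among hormone genes Lep, which encodes leptin, ran from 6.45 through 6.64 to 7.61 in CR and from 5.45 through 7.40 to 8.62 in WT (-0.99 ± 0.48, adjusted p = 0.497). Adipoq, which encodes adiponectin, was 12.62 ± 0.13 in CR and 12.66 ± 0.30 in WT (0.09 ± 0.11, adjusted p = 0.851), and Fgf21 was 4.79 ± 0.23 in CR and 5.36 ± 0.26 in WT (-0.36 ± 0.23, adjusted p = 0.651). Of the clock output genes, Dbp differed by 0.23 ± 0.42, Per1 by 0.16 ± 0.28 and Nr1d1 by -0.42 ± 0.28, and none of the 3 passed. Sirt1, the deacetylase whose transgene the series tests in other animals, was 6.36 ± 0.07 in CR and 6.84 ± 0.32 in WT; the WT animals numbered above 2000 had a mean of 6.58, and the fitted difference was -0.29 ± 0.11 (adjusted p = 0.338).

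**Figure D4:**
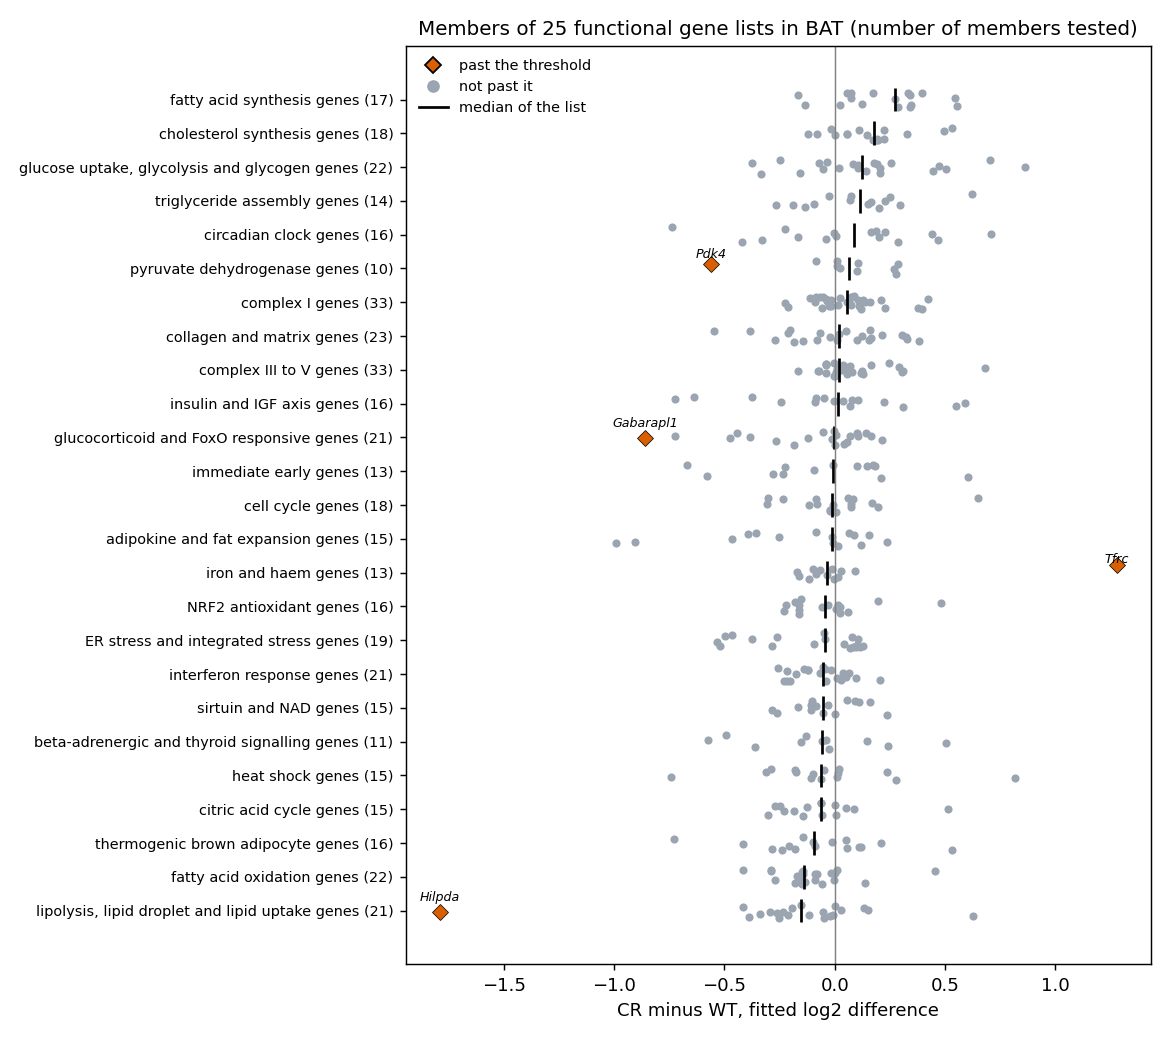
Fitted log2 difference (CR minus WT) of each tested member of 25 functional gene lists in BAT, ordered by the median of the list (vertical ticks). Orange diamonds mark the 4 members past the threshold (Hilpda, Gabarapl1, Pdk4 and Tfrc), and medians run from -0.16 for lipolysis and lipid droplets to 0.27 for fatty acid synthesis.

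The ranges of the other marker lists given here overlapped between groups. Brown adipocyte markers had a mean level of 10.04 to 10.31 in CR and 9.99 to 10.57 in WT, and the general adipocyte markers 9.33 to 9.56 in CR and 9.53 to 9.95 in WT. Macrophage markers had 6.31 to 6.93 in CR and 6.19 to 7.61 in WT, T and NK cell markers 4.81 to 5.32 in CR and 4.87 to 5.81 in WT, and endothelial markers 7.04 to 7.70 in CR and 7.22 to 7.77 in WT. In all 15 marker lists 0 genes passed in limma, where 0.269% of all genes passed. White adipocyte markers had a mean level of 4.82 to 5.25 in CR and 4.67 to 5.89 in WT; 3 of 4 were negative (median -0.50) and 2 were lower at an unadjusted p under 0.05. General adipocyte markers were negative in 5 of 6 (median -0.22). Fabp4, among those negative, was detected on 0 CR and 3 WT arrays. Nnat, among the negative white adipocyte markers, was detected on 2 CR and 5 WT arrays, so both lie near background. The part of these 2 marker lists in the values of the lipid lists was not tested.

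The difference between tissues was tested directly in a fit over 48 arrays of BAT and eWAT, and in another over 48 arrays of BAT and liver. In eWAT the CR effect on its own passed for 699 of the 9793 genes detected in both fat depots (7.14%). Among them were 4 of the 24 named genes past the threshold in BAT, each with the same sign. Btc differed by -1.09 in BAT and -1.05 in eWAT (adjusted p in eWAT 0.0124), Tiam1 by -1.06 in BAT and -0.61 in eWAT (0.0354), Snhg11 by 1.57 in BAT and 0.82 in eWAT (0.0348), and Pdk4 by -0.56 in BAT and -1.42 in eWAT (0.000254). For none of these 4 did the difference between depots pass, with adjusted p from 0.339 for Pdk4 to 0.988 for Btc. The CR effect differed between BAT and eWAT for 88 genes (0.899%), or for 221 (2.26%) when the animal was a block, and for 58 (0.592%) without the 2 muscle-bearing arrays. Among the 24 named genes it differed for Tfrc, by 1.12 ± 0.28 (adjusted p = 0.0389 in limma), whose effect was 1.28 in BAT and 0.16 in eWAT. The 24 were chosen on their BAT difference, which is part of this contrast, so the Tfrc call is not independent of the choice. With the block the adjusted p of Tfrc was 0.0172, and 6430571L13Rik passed too at 0.0259; without the 2 arrays Tfrc was at 0.0632 and 0 of the 24 passed. Acaca and Fasn passed in eWAT, with differences of 1.13 (adjusted p = 0.0129 in limma) and 1.48 (0.0414). Dbp, at 1.91 (0.00619), and Angptl4, at -0.71 (0.00827), passed there too. The difference from BAT was -0.85 for Acaca (adjusted p = 0.451) and -1.65 for Fasn (adjusted p = 0.273) and did not pass. Nor did that of Dbp, at -1.68 (adjusted p = 0.269), or of Angptl4, at 0.29 (adjusted p = 0.772). Elovl6 was the 1 of 17 fatty acid synthesis genes whose effect differed between the depots, by -2.38 (adjusted p = 0.0141 in limma), with 0.55 in BAT and 2.93 in eWAT, and it passed with the block and without the 2 arrays too.

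In liver the CR effect passed for 53 of the 8956 genes detected in both tissues (0.592%). Of the 22 named genes past the threshold in BAT and measured in both tissues, Pdk4 was the only one among them. It was at -1.67 (adjusted p = 0.000445 in limma) against -0.56 in BAT, and the effects differed by 1.11 without passing (adjusted p = 0.41). Of the named genes not past it in BAT, Fgf21 (-2.20, adjusted p = 2.13e-05), Acaca (0.98, 0.0103), Dbp (2.28, 0.0401) and Angptl4 (-0.57, 0.0441) passed in liver. Their differences from BAT did not pass, the lowest adjusted p being 0.0689 for Fgf21 (0.0478 with the animal as a block). The effect differed between BAT and liver for 8 genes (0.0893%), of which 6 were named genes past the threshold in BAT. Those 6 were chosen on their BAT difference, which is part of this contrast, so that count is not independent of the choice. Tfrc differed by 1.28 in BAT and -0.59 in liver, a difference of 1.87 ± 0.37 (adjusted p = 0.0125 in limma). Btc gave -1.21 ± 0.24 (0.0125), Tiam1 -1.15 ± 0.22 (0.0117), Entpd4 0.87 ± 0.16 (0.0117), ILMN_1225528 -1.47 ± 0.30 (0.0268) and Lsm14a -0.69 ± 0.15 (0.0287). With the animal as a block 12 genes passed (0.134%), C1qtnf4 and Snhg11 among them, and without the 2 BAT arrays 5 passed (0.0558%), with Tfrc, Btc, Tiam1 and Entpd4 among them.

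**Figure D5:**
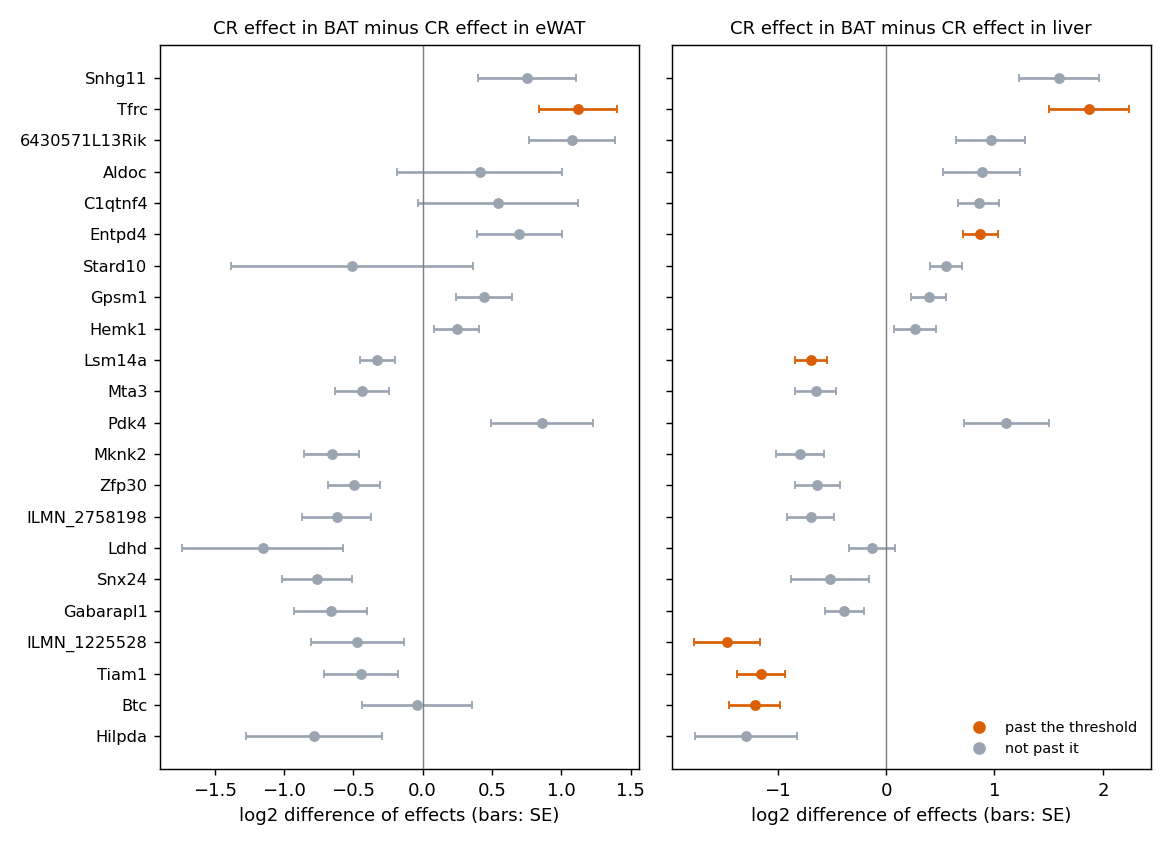
Difference of the CR effect (log2, with SE) between BAT and eWAT on the left and between BAT and liver on the right, for the 22 named genes past the threshold in BAT that were measured in all 3 tissues. Tfrc passes in both panels, at 1.12 and 1.87, and Entpd4, Lsm14a, ILMN_1225528, Tiam1 and Btc pass in the liver panel.

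The other conditions of the series shared the same 6 WT arrays, so their values are set side by side and no test was made between them. All 6 wheel animals were numbered below 2000, so their fitted differences also rest on the series term: the plain means of Ldhd were 8.34 with the wheel and 8.19 in WT. Against WT, Gabarapl1 differed by -0.86 in CR and 0.43 in animals with a running wheel, Ldhd by -0.66 in CR and 0.38 with the wheel, and Btc by -1.09 in CR and -0.63 with the wheel. Stard10 differed by 0.46 in CR and 0.52 with the wheel. Pdk4 differed by -0.56 in CR and 0.06 with the wheel, and Tfrc by 1.28 in CR and -0.22 with the wheel. Hilpda had a mean level of 7.72 in CR, 9.05 with the wheel, 8.29 in SIRT1Tg animals and 9.08 in WT.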

How the data were processed

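Total RNA of 96 tissue samples was hybridised to Illumina bead arrays. The authors deposited non-normalised intensities, 1 per probe and array for 25697 probes, which were used here. A matrix of log2 values of the same arrays was also deposited by the authors and served as an alternative. Its centring was not stated, its highest column median was 6.718, and GenomeStudio and Partek are named in the submitters' processing notes without a version. Detection p-values were not in the files used here, so limma's neqc could not be run. Each array's background was placed at the mode of its log2 density (bandwidth 0.03), followed by normexp correction, an offset of 16 and quantile normalisation within a tissue. A probe was kept when it lay above the upper 0.05 tail of background on 6 or more of the 24 BAT arrays, which left 13303 probes. The probe with the highest mean stood for a gene, which gave 10025 genes tested, 750 of them probes with no symbol. Symbols came from the gene ID of the platform annotation for 23962 probes, from its symbol for 16, and 1719 had none.

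Groups were taken from the labels. The model was fitted with limma 3.58.1 in R 4.3.3 over 24 BAT arrays, with terms for condition and number series, and p-values were adjusted by the Benjamini-Hochberg method over all genes. The effects of tissues were compared by an interaction term. CR and WT animals differ, so no pairing enters the main comparison. Each animal gave several tissues: deviations from the group means of same-numbered BAT and eWAT arrays correlated with a median r of 0.156 over 11 pairs, and those of BAT and liver with 0.0708 over 12 pairs. Named genes were, among genes past adjusted p 0.05 whose sign held when the series term or the 2 muscle-bearing arrays were dropped, the 15 largest rises and the 15 largest falls by log2 difference, up to 4 such members of each gene list, and a set of genes of brown fat, fasting, the clock and muscle whatever their test. Other list members were named after their values were seen. The members and the gene lists were chosen with earlier results of these data known. Promoter windows came from RefSeq (GRCm38.p6). Scripts were tested on simulated data. Figures were drawn with matplotlib 3.10.9 in Python 3.11.15. Alternatives were the deposited matrix, background, offset, scaling, filter, series, slide, array weights, a muscle covariate and the omission of arrays.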

Additional observations from a re-analysis of the deposited data

Results flagged for a closer look

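Among the named genes, 80 groups of 6 arrays were examined for an array far from the rest of its group, and 8 were found, where chance gives about 1 in 20. Hilpda stood at 7.25 on BAT_1959_WT, against 9.07 to 9.72 on the other 5 WT arrays, and at 8.40 on BAT_2236_CR, against 7.42 to 7.76 on the other 5 CR arrays. BAT_2236_CR was also high for probe ILMN_1225528, at 7.86 against 7.01 to 7.32. BAT_1959_WT was high for Gpsm1, at 4.86 against 4.30 to 4.48 on the other WT arrays. Snx24 was low on BAT_2242_CR, at 6.05 against 6.43 to 6.63. Acaca was low on BAT_2245_CR, at 12.89 against 13.31 to 13.52. On BAT_2241_CR, 1 of the 2 muscle-bearing arrays, Lep stood at 7.61 against 6.45 to 6.81 on the other CR arrays, and Per1 at 7.86 against 6.30 to 6.85.

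The effect of CR differed between tissues by an interaction test for 9 pairs of a gene given above and a tissue. Apart from Elovl6, these genes were chosen on their BAT difference, which is part of the contrast. Elovl6 was named after its values were seen, so the count of pairs is not independent of the choice. Over all genes the effect in BAT differed from that in eWAT for 0.899% and from that in liver for 0.0893%. Tfrc differed between BAT and eWAT by 1.12 on the log2 scale and between BAT and liver by 1.87. Between BAT and eWAT the difference was -2.38 for Elovl6 and -0.67 for Pitpnb. Between BAT and liver the difference was 0.87 for Entpd4, -1.21 for Btc, -1.15 for Tiam1, -0.69 for Lsm14a and -1.47 for ILMN_1225528. Without the 2 muscle-bearing arrays the adjusted p in limma was above 0.05 for Tfrc between BAT and eWAT (0.0632), for ILMN_1225528 (0.114) and for Lsm14a (0.146), so those 3 calls were lost.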

How the results depend on the processing

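The 27 genes past the threshold became 7 against the WT animals numbered above 2000 only, 4 with CR and WT arrays only, 1 with slide as a fixed term, 55 with array weights and 10 without the 2 muscle-bearing arrays. Omission of 1 array gave 9 (without BAT_2231_WT) to 44 (without BAT_1959_WT). The deposited matrix, no background correction, an offset of 50, median scaling, either other filter, slide as a random block, the muscle covariate and no series term gave 20 to 31, but without the series term only 13 of 30 were among the 27. The 10 genes without the 2 muscle-bearing arrays became 5 under median scaling, 114 with array weights, and 0 against the WT animals numbered above 2000 only (1221 at an unadjusted p under 0.05 in limma), with CR and WT arrays only (1154) or with slide fixed (534). Further omission gave 0 (without BAT_2232_WT, 775 unadjusted, or BAT_2239_CR, 706) to 25 (without BAT_1959_WT). With the animal as a replicate block, which the design supports across tissues, the difference between BAT and eWAT passed for 221 genes in place of 88, and that between BAT and liver for 12 in place of 8. Without the 2 muscle-bearing arrays these were 58 and 5. All 24 named genes past the threshold kept their sign in every setting run. The rule for named genes required this without the series term and without the 2 muscle-bearing arrays. Without background correction the log2 differences shrank to a median of 0.642 of those reported (0.267 to 0.987). The 24 genes lost the call in 98 of 288 omissions and in 106 of 336 other settings. Angptl4 gained a call without the series term. The cause of these changes was not tested. Signal near background limits Aldoc and Gpsm1 in WT, Zfp30 in CR, and the markers Fabp4 and Nnat.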
